A study of Mus musculus with 6 samples.

Results

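Matricellular proteins, fibronectin, vitronectin and the hyaluronan receptor Cd44 were followed in the hearts of 2-week-old mice bred to lack Cfp1 in cardiomyocytes. The set holds 10 of the 26881 genes of the expression table, taken by their symbols: Postn, Spp1, Tnc, Thbs1, Thbs2, Thbs4, Sparc, Fn1, Vtn and Cd44. Cfp1, the product of Cxxc1, belongs to the Setd1 complexes, which trimethylate histone H3 at lysine 4. RNA-seq compared 3 hearts or pools of hearts from Cfp1-cKO mice (Myh6-Cre: Cfp1 flox/flox, C57BL/6) with 3 from WT mice, all 2 weeks old. The Myh6 promoter drives Cre in cardiomyocytes, so that other heart cells, among them the fibroblasts and macrophages known to make most of these proteins, keep Cfp1 by design. The study calls its controls WT littermates, and littermates from the described breeding carry at least 1 floxed allele, but the Cre and floxed alleles of the sequenced WT hearts are not given in the sources used here. Nor is it given whether a sample was 1 heart or several. The p-values therefore measure the spread between these samples, which may be technical. The comparison asks which RNAs differ between Cfp1-cKO and WT hearts.

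Matricellular proteins are secreted into the extracellular matrix but, unlike collagen, do little to bear load. They bind matrix, growth factors and cell surface receptors, and many are abundant in the developing heart, scarce in the quiet adult heart, and present again after injury. Fibronectin is a matrix glycoprotein that integrins assemble into fibrils, and vitronectin is a plasma and matrix adhesion protein made mainly in liver. Cd44 is a cell surface receptor for hyaluronan that also binds osteopontin, the product of Spp1, and is carried by leukocytes, epithelial cells and activated fibroblasts.

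Of the 10 genes, 8 matched a RefSeq window of the 250 bases before the transcription start (GRCm38.p6), and Thbs1 and Fn1 did not match. The windows of Cd44, Sparc, Thbs4 and Vtn are shown because these matched genes differed between genotypes below. Capitals mark CG, the dinucleotide that the CXXC domain of Cfp1 is known to bind when it is unmethylated. The Cd44 window is chr2:102901666-102901915 on the minus strand, the Sparc window is chr11:55420081-55420330 on the minus strand, the Thbs4 window is chr13:92794819-92795068 on the minus strand, and the Vtn window is chr11:78498870-78499119 on the plus strand.
Cd44: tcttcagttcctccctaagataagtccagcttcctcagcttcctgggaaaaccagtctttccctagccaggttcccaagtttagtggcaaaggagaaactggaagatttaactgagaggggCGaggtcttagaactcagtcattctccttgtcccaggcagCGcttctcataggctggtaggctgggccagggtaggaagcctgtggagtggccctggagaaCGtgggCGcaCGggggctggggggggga
Sparc: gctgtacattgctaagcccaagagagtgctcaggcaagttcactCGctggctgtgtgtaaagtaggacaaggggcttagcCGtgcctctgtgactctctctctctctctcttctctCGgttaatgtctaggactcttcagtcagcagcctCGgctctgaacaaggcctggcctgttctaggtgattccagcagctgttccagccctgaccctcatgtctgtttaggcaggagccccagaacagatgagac
Thbs4: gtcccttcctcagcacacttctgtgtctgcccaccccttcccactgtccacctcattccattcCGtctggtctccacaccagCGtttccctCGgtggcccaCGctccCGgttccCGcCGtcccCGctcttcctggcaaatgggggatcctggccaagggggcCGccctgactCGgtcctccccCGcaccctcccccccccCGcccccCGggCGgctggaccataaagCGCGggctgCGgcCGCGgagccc
Vtn: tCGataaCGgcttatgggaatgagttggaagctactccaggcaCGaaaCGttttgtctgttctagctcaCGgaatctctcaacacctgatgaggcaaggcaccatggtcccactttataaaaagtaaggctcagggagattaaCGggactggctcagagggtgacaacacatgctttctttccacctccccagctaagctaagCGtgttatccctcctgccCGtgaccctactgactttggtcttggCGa
The Cd44 window held 5 CG, the Sparc window 4, the Vtn window 9 and the Thbs4 window 19. Over all 32851 windows of this length the median was 6 CG and the quartiles were 2 and 16. The share of windows with as many CG or fewer was 49.65% for Cd44, 44.42% for Sparc, 62.2% for Vtn and 82.05% for Thbs4. The other matched windows held 3 (Spp1, Thbs2), 4 (Postn) and 8 (Tnc) CG, so that 5 of the 8 lay below the median. The letters TATAAA, searched on both strands, stood in 5 of the 8 windows (Postn, Spp1, Tnc, Thbs2 and Vtn) and in 12.4% of all windows. The letters TGANTCA, searched on both strands, stood in 0 of the 8 windows and in 6.75% of all windows. The Sparc window lies inside the deposited gene, since its RefSeq start is 3102 bases from the outer start of the gene in the table. No histone or DNA methylation data were used here, and these letters are a description of the sequence only.

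**Figure D1:**
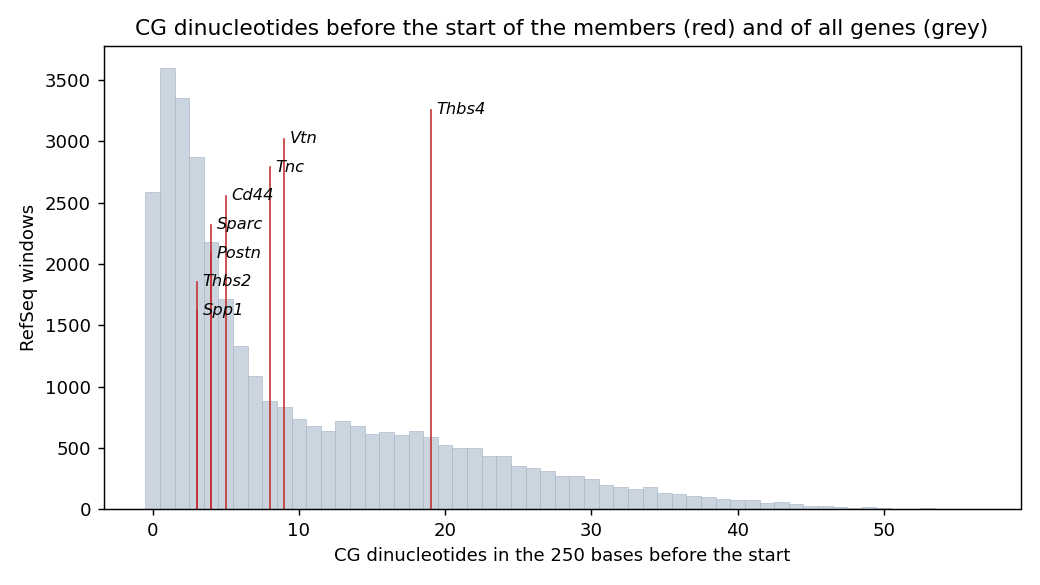
Histogram of the number of CG dinucleotides (horizontal axis) in the 250 bases before the start over 32851 RefSeq windows (vertical axis, number of windows), with a red line at the count of each of the 8 matched genes. Thbs4 (19) lies above the upper quartile of 16, and the other 7 lie between 3 and 9.

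The libraries held between 16672652 and 22700811 fragments, and 1 fragment in a gene of 2 kb was worth 0.0220 to 0.0300 FPKM (a fragment count divided by exon length and library size). Differences were tested with limma on log2(FPKM + 1). The 11017 genes whose mean over the 6 libraries reached 1 FPKM entered the test, among them all 10 genes of the set. A difference counted as called where the adjusted p (Benjamini-Hochberg, over all tested genes) was below 0.05 and the log2 fold change exceeded 0.5 in size. Fold changes on this scale understate the change of low genes. Over all tested genes the median log2 fold change was 0.35, and median-of-ratios scaling, which brings the median to 0.00, is therefore given beside each result. Of all tested genes, 2325 (21.1%) were called higher and 185 (1.68%) lower in Cfp1-cKO, against 412 (3.74%) higher and 358 (3.25%) lower after scaling. Cxxc1 itself had FPKM values of 9.66, 12.9 and 10.03 in WT and of 8.02, 9.94 and 8.74 in Cfp1-cKO (log2 fold change -0.26, adjusted p = 0.249 from limma). These values include every exon and every heart cell type, so they do not measure the deletion itself. By Xist and Eif2s3y, 1 of 3 WT libraries (WT 2) and 2 of 3 Cfp1-cKO libraries were from females.

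Markers of several other cell types differed between the genotypes, and their part in the results below was not tested. The counts stand beside 21.1% of all tested genes called higher and 1.68% called lower. All Cfp1-cKO values exceeded all WT values for 46.4% of all tested genes. All 12 lung epithelium markers were called higher in Cfp1-cKO, from a sum of 0.53 to 6.86 FPKM across WT to 3244 to 4934 FPKM across Cfp1-cKO libraries, and Lamp3 and Cldn18 were listed at 0 in all WT libraries. Macrophage markers (4 of 8 tested called higher) summed to 89.2 to 95.6 FPKM across WT and 485 to 833 FPKM across Cfp1-cKO libraries, and most of this difference was Lyz2, the myeloid lysozyme gene. Without Lyz2 the macrophage sum was 53.0, 39.6 and 53.2 FPKM for WT against 97.8, 93.1 and 62.3 FPKM for Cfp1-cKO, and after scaling these sums overlapped (48.3 to 62.2 for WT and 50.5 to 91.7 for Cfp1-cKO). Besides Lyz2, limma called Cd68 (log2 fold change 1.13, adjusted p = 0.0123), Csf1r (0.81, adjusted p = 0.0336) and Mrc1 (0.87, adjusted p = 0.0412), all without overlap. Adgre1 did not overlap but was not called (0.89, adjusted p = 0.0642 from limma). Cd163, C1qa and C1qb overlapped between the genotypes and were not called. After scaling Lyz2 and Cd68 kept their calls. Except for Lyz2, these markers are named after their values were seen. Alveolar macrophage markers (2 of 3 tested) summed to 24.3 to 45.9 and 62.8 to 135 FPKM, with Marco listed at 0 in WT. Most of the WT sum was Car4 (40.6, 42.1 and 23.9 FPKM). Across Cfp1-cKO libraries Car4 had 41.1, 23.5 and 35.2 FPKM, and it was not called (log2 fold change -0.09, adjusted p = 0.819 from limma). The genes called were Chil3 and Ear2. Chil3 rose from at most 3.41 FPKM across WT to at least 15.5 FPKM across Cfp1-cKO libraries, and Ear2 from at most 0.25 to at least 4.28 FPKM. The sums were 3.82 to 5.10 and 12.4 to 29.7 FPKM for mesothelium (3 of 4 tested), 5.15 to 9.88 and 11.8 to 32.2 FPKM for platelets (2 of 2 tested), and 0.53 to 2.12 and 4.95 to 21.02 FPKM for B cells (1 of 1 tested). Resident fibroblast markers were closer, at 406 to 458 and 506 to 574 FPKM (1 of 7 called higher), still without overlap. After scaling these sums overlapped, at 445 to 558 for WT and 410 to 533 for Cfp1-cKO. Activated fibroblast markers ran from 35.8 to 198 FPKM across WT and from 126 to 163 FPKM across Cfp1-cKO libraries (3 of 6 tested called higher). Most of this sum was Acta2, which overlapped, with 118, 33.4 and 190 FPKM in WT and 111, 113 and 149 FPKM in Cfp1-cKO. Ltbp2 (log2 fold change 1.53, adjusted p = 0.00358 from limma), Cilp (1.35, adjusted p = 0.0131) and Ddah1 (1.04, adjusted p = 0.0314) were called, all without overlap. Cthrc1 did not overlap but was not called (1.04, adjusted p = 0.134 from limma), and Fap overlapped. Except for Acta2, these too are named after their values were seen. Tendon and cartilage markers (1 of 3 tested called higher) summed to 1.96 to 6.79 and 9.98 to 12.3 FPKM, without overlap. Of endothelium, mural and smooth muscle markers, 2 of 6, 2 of 6 and 1 of 6 were called higher, near the 21.1% of all tested genes. The defining markers of heart muscle were abundant in all 6 libraries, with sums of 9511 to 16760 FPKM across WT and 8329 to 11255 FPKM across Cfp1-cKO libraries (3 of 8 called lower). After scaling the cardiomyocyte sums no longer overlapped, at 11581 to 19144 for WT and 6798 to 10186 for Cfp1-cKO, and the count called lower was again 3. Scaling left 11 lung epithelium markers called higher, 2 each of macrophages, alveolar macrophages, mesothelium and activated fibroblasts, and 1 hepatocyte marker, beside 3.74% of all tested genes. Of the 31 tested markers of the remaining 7 lists (resident fibroblasts, endothelium, mural cells, smooth muscle, platelets, B cells, and tendon and cartilage), limma called 0 after scaling, with 6 higher and 3 lower at an unadjusted p below 0.05, beside 12.7% and 12% of all tested genes. WT 2 was the lowest WT library for the cardiomyocyte and the activated fibroblast sum. In bulk RNA, fewer cells of a type and less RNA per cell cannot be told apart.

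**Figure D2:**
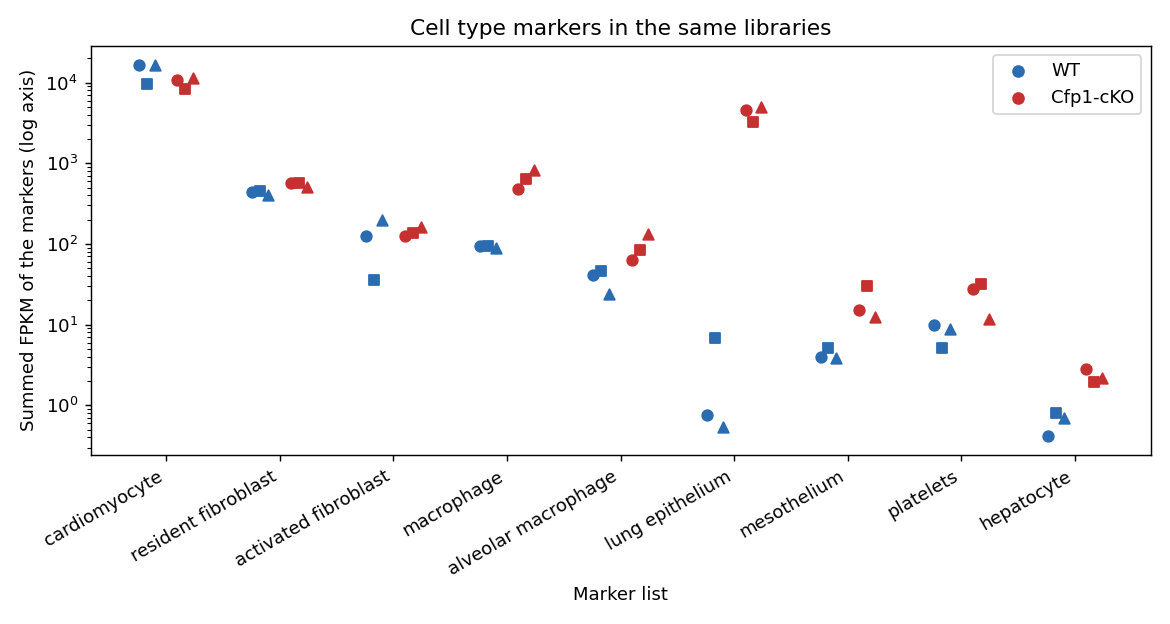
Summed FPKM of cell type marker lists (vertical log axis) in the 3 WT (blue) and 3 Cfp1-cKO (red) libraries, with circle, square and triangle for replicates 1, 2 and 3. Lung epithelium markers reached at most 6.86 FPKM in WT and at least 3244 FPKM in Cfp1-cKO. Resident fibroblast markers lay between 406 and 458 FPKM in WT and between 506 and 574 FPKM in Cfp1-cKO.

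Across the set, Fn1, Sparc, Thbs4 and Cd44 were called higher and Vtn lower in Cfp1-cKO, 4 and 1 of 10 genes, beside 21.1% and 1.68% of all tested genes. After median-of-ratios scaling Cd44 stayed higher and Vtn stayed lower, 1 of 10 each, beside 3.74% and 3.25%. All 3 Cfp1-cKO values exceeded all 3 WT values for 6 genes (Postn, Tnc, Thbs4, Sparc, Fn1 and Cd44), an order that 46.4% of all tested genes showed. Vtn alone was below WT in all 3 Cfp1-cKO libraries, as were 3.23% of all tested genes. After scaling, 4 genes remained fully above (Tnc, Thbs4, Sparc and Cd44), as did 16.7% of all tested genes, and Vtn fully below, as did 14.9%. Without an adjustment for multiple tests, 6 genes were higher and 1 lower at p below 0.05, beside 40.7% and 3.09% of all tested genes. In WT hearts the order of mean FPKM, a level per length, was Sparc, Postn, Thbs2, Fn1, Vtn, Thbs1, Spp1, Cd44, Thbs4 and Tnc. From Postn to Cd44 in this order, the ranges of neighbours over the WT libraries overlapped. In Cfp1-cKO hearts the order was Sparc, Postn, Fn1, Thbs2, Cd44, Thbs1, Spp1, Vtn, Thbs4 and Tnc. From Postn to Tnc the ranges of neighbours over the Cfp1-cKO libraries overlapped.

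Cd44 showed the largest log2 fold change of the set and the smallest standard error. Cd44 (ENSMUSG00000005087, chr2:102811141-102901665, minus strand) had FPKM values of 1.72, 1.5 and 2.02 in WT and of 8.26, 9.28 and 9.79 in Cfp1-cKO. The highest WT value was thus well below the lowest Cfp1-cKO value, and the values of each genotype lay close together. The mean rose from 1.75 ± 0.26 to 9.11 ± 0.78 FPKM (SD, n = 3 each), on 192 to 264 fragments per WT library and 1048 to 1195 per Cfp1-cKO library. The ratio of means was 5.22, and the log2 fold change was 1.88 (standard error 0.15, 95% interval 1.54 to 2.23, limma adjusted p = 0.000282). After median-of-ratios scaling it was 1.54 (adjusted p = 0.000589 from limma). Cd44 was called in all 17 alternative settings, with log2 fold changes from 1.54 to 2.39 and adjusted p from 7.08e-06 to 0.0062. The lung epithelium sum was also fully separated between the genotypes (at most 6.86 FPKM in WT, at least 3244 FPKM in Cfp1-cKO), as was the macrophage sum with Lyz2 (at most 95.6 and at least 485 FPKM) and without it (at most 53.2 and at least 62.3 FPKM, overlapping after scaling). Their part in the Cd44 difference was not tested.

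The genes nearest to Cd44 in pattern, by the root mean square difference of centred log2(FPKM + 1) over the 6 libraries, were Wwc1 (0.107) and Sfta2 (0.112). Wwc1, which encodes the Hippo pathway scaffold Kibra, had FPKM values of 0.0266, 0.0535 and 0.0336 in WT and of 2.39, 2.49 and 3.20 in Cfp1-cKO. Sfta2, a surfactant-associated gene, was listed at 0 in WT and had FPKM values of 2.22, 2.65 and 3.48 in Cfp1-cKO. Both were far lower than Cd44 in WT hearts, so that the log2(FPKM + 1) scale shrank their changes more. Nearness on this scale therefore does not mean an equal fold change in FPKM, which was larger for both than for Cd44.

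Fibronectin varied far more between libraries. Fn1 (ENSMUSG00000026193, chr1:71585520-71653200, minus strand) had FPKM values of 6.47, 2.94 and 10.7 in WT and of 12.3, 42.2 and 15.7 in Cfp1-cKO. Cfp1-cKO 2 was the highest and WT 2 the lowest library, and the closest values across the genotypes were 10.7 and 12.3 FPKM. The mean was 6.70 ± 3.89 FPKM for WT against 23.4 ± 16.4 FPKM for Cfp1-cKO (SD, n = 3 each). Fn1 was called higher with a log2 fold change of 1.6 (standard error 0.49, 95% interval 0.47 to 2.73, adjusted p = 0.0485 from limma), close to the threshold. The groups overlapped after scaling (log2 fold change 1.20, adjusted p = 0.175 from limma). The call was lost without WT 1 (1.65, adjusted p = 0.102), WT 2 (1.18, adjusted p = 0.102), Cfp1-cKO 1 (1.94, adjusted p = 0.0518), Cfp1-cKO 2 (1.09, adjusted p = 0.137) or Cfp1-cKO 3 (1.78, adjusted p = 0.0835), all from limma. Of its exon bases 2.5% are shared with Apol7d on the other strand. Nearest in pattern were Aplnr, the apelin receptor (0.195), with FPKM values of 3.89, 1.89 and 9.13 in WT and of 9.78, 25.5 and 9.09 in Cfp1-cKO, and the collagen gene Col14a1 (0.227).

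Vitronectin, the other plasma adhesion protein of the set, went the opposite way. Vtn (ENSMUSG00000017344, chr11:78499091-78502324, plus strand) had FPKM values of 8.09, 5.62 and 6.07 in WT and of 4.75, 2.42 and 3.86 in Cfp1-cKO. The highest Cfp1-cKO value lay below the lowest WT value, and 82 to 373 fragments stood behind each value. The mean was 6.60 ± 1.32 FPKM for WT against 3.68 ± 1.18 FPKM for Cfp1-cKO (SD, n = 3 each) and the log2 fold change -0.72 (standard error 0.22, 95% interval -1.23 to -0.21, limma adjusted p = 0.0497). Median-of-ratios scaling gave -1.08 (adjusted p = 0.0383 from limma). The call was lost without WT 1 (-0.58, adjusted p = 0.152), WT 2 (-0.81, adjusted p = 0.0566), WT 3 (-0.76, adjusted p = 0.0638), Cfp1-cKO 2 (-0.51, adjusted p = 0.164) or Cfp1-cKO 3 (-0.76, adjusted p = 0.0978), all from limma. Liver is the main source of vitronectin. The hepatocyte markers (7 of 8 in the table, 1 tested and called higher) summed to 0.42 to 0.80 FPKM across WT and 1.93 to 2.81 FPKM across Cfp1-cKO libraries. Most of this difference was Ttr, the gene tested, with 0.22, 0.48 and 0.18 FPKM for WT against 2.36, 1.33 and 1.55 FPKM for Cfp1-cKO. Alb, Fga, Fgb and Apoh reached no more than 0.0906 FPKM in any library, and Apoa1 and Apoa2 overlapped between the genotypes. Apoh was listed at 0 in WT and Fgb at 0 in Cfp1-cKO.

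Sparc, which encodes the collagen-binding protein osteonectin, was the most abundant gene of the set. It (ENSMUSG00000018593, chr11:55394500-55423183, minus strand) ranked 198 of 26881 genes by its WT mean. Its FPKM values were 143, 112 and 214 in WT and 305, 462 and 307 in Cfp1-cKO. All Cfp1-cKO values exceeded the highest WT value, WT 3, also after scaling. Mean Sparc FPKM rose from 156 ± 52.2 to 358 ± 90.3 (SD, n = 3 each). Its log2 fold change was 1.21 (standard error 0.27, 95% interval 0.61 to 1.82, adjusted p = 0.0197 from limma). Scaling ended the call (0.77, adjusted p = 0.116 from limma), as did leaving out WT 1 (1.18, adjusted p = 0.0632 from limma) or Cfp1-cKO 2 (1.02, adjusted p = 0.0726 from limma).

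Postn and Tnc encode periostin and tenascin-C, matricellular proteins that activated fibroblasts lay down in developing and injured hearts. Neither passed the adjusted threshold, although both were separated between the genotypes in FPKM. Postn (ENSMUSG00000027750, chr3:54361109-54391037, plus strand) had FPKM values of 29.9, 13.2 and 31.2 in WT and of 45.2, 113 and 35.3 in Cfp1-cKO. Cfp1-cKO 2 stood well above all other libraries, and Cfp1-cKO 3 was just above the highest WT value. Its means were 24.8 ± 10.02 and 64.5 ± 42.4 FPKM (SD, n = 3 each), with a log2 fold change of 1.25 (standard error 0.46, 95% interval 0.21 to 2.29, limma adjusted p = 0.0732). After scaling the groups overlapped (0.82, adjusted p = 0.299 from limma). The genes nearest to Postn in pattern were Fstl1, a follistatin-like secreted protein (0.177), with FPKM values of 48.4, 27.7 and 58.2 in WT and of 90.1, 169 and 74.4 in Cfp1-cKO, and Stmn1, a microtubule regulator of dividing cells (0.247).

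Tnc (ENSMUSG00000028364, chr4:63959785-64047015, minus strand) was the least abundant gene of the set, with FPKM values of 0.27, 0.16 and 0.43 in WT and of 0.78, 3.85 and 0.93 in Cfp1-cKO. Again Cfp1-cKO 2 was the highest and WT 2 the lowest library, and the groups did not overlap, also after scaling. The fragments ran from 23 to 60 in WT and from 118 to 499 in Cfp1-cKO libraries. Its means were 0.29 ± 0.14 and 1.85 ± 1.73 FPKM (SD, n = 3 each), a ratio of 6.48. On the log2(FPKM + 1) scale, which shrinks so low a gene, the fold change was 0.99 (standard error 0.36, 95% interval 0.17 to 1.82, adjusted p = 0.0722 from limma), and 0.81 after scaling (adjusted p = 0.189 from limma). With voom of limma on the fragments recovered from the FPKM values it was 2.37 and was called (adjusted p = 0.0461). Of its exon bases 2.26% are shared with 8030451A03Rik on the other strand.

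Spp1, which encodes osteopontin, a secreted ligand of Cd44 and integrins made by activated macrophages, varied most among the WT libraries. Spp1 (ENSMUSG00000029304, chr5:104435118-104441050, plus strand) had FPKM values of 0.51, 6.44 and 0.24 in WT and of 4.49, 4.73 and 2.39 in Cfp1-cKO. WT 2 was the highest of all 6 libraries, whereas WT 1 and WT 3 were the lowest. The fragments were 19, 200 and 7 in WT and 144, 130 and 71 in Cfp1-cKO, and 18.8% of its exon bases are shared with Gm42793 on the same strand, so that its level is uncertain. Its means were 2.39 ± 3.51 and 3.87 ± 1.29 FPKM (SD, n = 3 each), and the log2 fold change was 0.98 (standard error 0.61, 95% interval -0.40 to 2.37, adjusted p = 0.231 from limma), or 0.69 after scaling (adjusted p = 0.554 from limma). Without WT 2 it was 1.80 and was called (adjusted p = 0.00701 from limma). WT 2 was also the only WT library from a female. With sex as a covariate, added after seeing the data, the log2 fold change was 0.45 (adjusted p = 0.32 from limma).

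**Figure D3:**
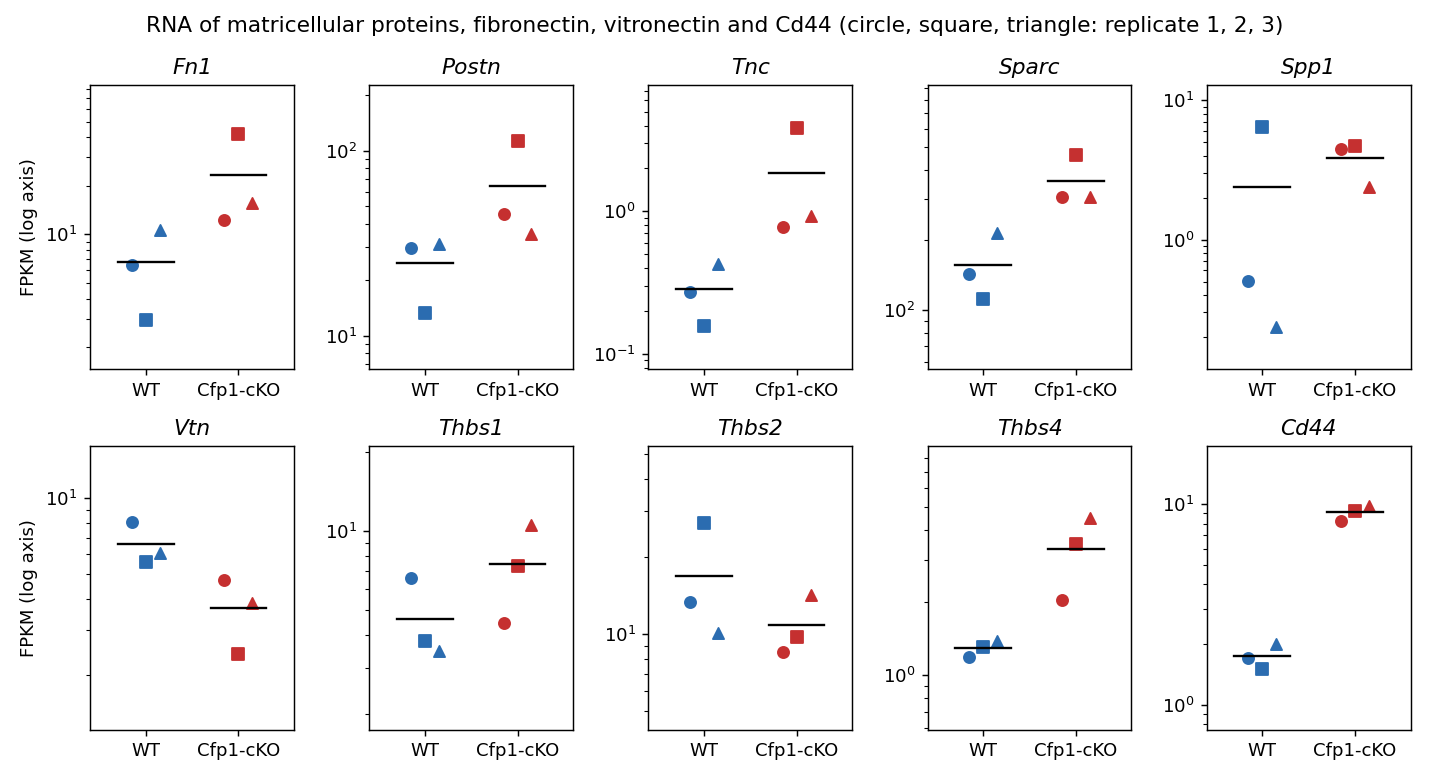
FPKM (log axis) of the 10 genes, with WT in blue and Cfp1-cKO in red, 1 symbol per library (circle, square, triangle for replicates 1, 2 and 3) and a bar at the mean of 3. Cd44 shows the widest gap relative to its spread (1.5 to 2.02 against 8.26 to 9.79 FPKM), Cfp1-cKO 2 lies highest for Fn1, Postn, Tnc and Sparc, and WT 2 lies highest for Spp1 and Thbs2.

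Thrombospondins are calcium-binding glycoproteins, and Thbs1 and Thbs2 form trimers that restrain vessel growth through Cd36 and Cd47, whereas Thbs4 forms pentamers and is known for its induction in the overloaded heart. Thbs4 was called higher in Cfp1-cKO, and Thbs1 and Thbs2 were not called. Thbs4 (ENSMUSG00000021702, chr13:92751590-92794818, minus strand) had FPKM values of 1.18, 1.31 and 1.38 in WT and of 2.04, 3.50 and 4.49 in Cfp1-cKO. The WT values lay close together and below all Cfp1-cKO values, also after scaling. The mean rose from 1.29 ± 0.10 to 3.35 ± 1.23 FPKM (SD, n = 3 each), on 81 to 266 fragments per library. The log2 fold change was 0.88 (standard error 0.22, 95% interval 0.37 to 1.39, adjusted p = 0.0287 from limma), and 0.58 after scaling (adjusted p = 0.107 from limma). The call was lost without WT 1 (0.85, adjusted p = 0.0877), WT 2 (0.89, adjusted p = 0.0505), Cfp1-cKO 2 (0.84, adjusted p = 0.103) or Cfp1-cKO 3 (0.69, adjusted p = 0.0792), all from limma.

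Thbs1 (ENSMUSG00000040152, chr2:118111876-118127133, plus strand) had FPKM values of 6.59, 3.79 and 3.48 in WT and of 4.44, 7.36 and 10.6 in Cfp1-cKO. WT 1 lay above Cfp1-cKO 1, so that the groups overlapped. Its log2 fold change was 0.56 (standard error 0.30, 95% interval -0.13 to 1.26, adjusted p = 0.179 from limma), and 0.18 after scaling (adjusted p = 0.723 from limma), with 3.42% of its exon bases shared with Gm29233 on the other strand. Thbs2 (ENSMUSG00000023885, chr17:14665500-14694262, minus strand) had FPKM values of 13.3, 27.0 and 10.1 in WT and of 8.49, 9.69 and 14.2 in Cfp1-cKO. WT 2 was the highest library, and the other WT values lay within the range of the Cfp1-cKO values. Its log2 fold change was -0.51 (standard error 0.34, 95% interval -1.27 to 0.26, adjusted p = 0.261 from limma), and -0.92 after scaling (adjusted p = 0.168 from limma). Its FPKM were whole fragments with 5922 exon bases, a length found by search, in place of the 7003 of GENCODE. Its level relative to other genes therefore depends on the length used.

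The make-up of thrombospondin RNA is given per length as the share of the summed FPKM of Thbs1, Thbs2 and Thbs4, a ratio that scaling between libraries does not change. Thbs2 held 63.1%, 84.1% and 67.4% in WT, against 56.7%, 47.2% and 48.5% in Cfp1-cKO hearts, and the groups did not overlap. Thbs4 held 5.59%, 4.07% and 9.27% in WT, against 13.7%, 17.04% and 15.3% in Cfp1-cKO hearts, again without overlap. Thbs1 held 31.3%, 11.8% and 23.3% in WT, against 29.6%, 35.8% and 36.1% in Cfp1-cKO hearts, where WT 1 overlapped. Thbs2 was thus the most abundant of these genes in every library, by a smaller margin in Cfp1-cKO hearts. These shares were chosen after the values were seen and are a description without a test.

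**Figure D4:**
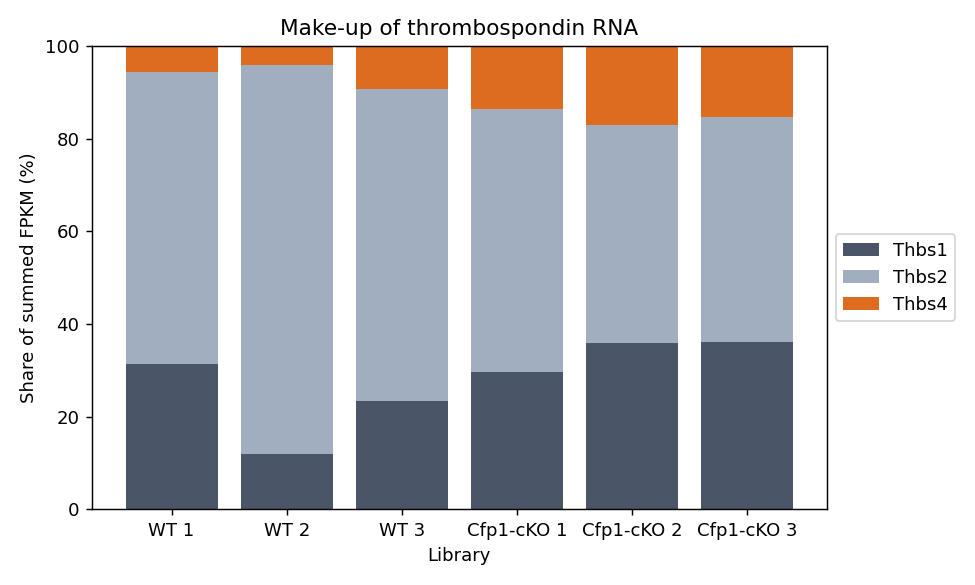
Share (%) of the summed FPKM of Thbs1, Thbs2 and Thbs4 held by each gene in the 3 WT and 3 Cfp1-cKO libraries, as stacked bars from 0 to 100. The Thbs4 share lies between 4.07% and 9.27% in WT and between 13.7% and 17.04% in Cfp1-cKO hearts.

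The spread within the genotypes was shared by several genes. Cfp1-cKO 2 was the highest library for 4 genes (Postn, Tnc, Sparc and Fn1), and WT 2 was the lowest for 5 (the same 4 and Cd44). Without Cfp1-cKO 2 or without WT 1, Cd44 was the only gene of the set that was called higher (1 of 10 in each case). Over all 11017 tested genes the count called higher fell from 2325 to 538 and 619 in these settings. Without Cfp1-cKO 3 the count in the set was 2, with Sparc as the other gene, beside 954 of all tested genes. Thbs1, Thbs4 and Cd44 were highest in Cfp1-cKO 3.

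**Figure D5:**
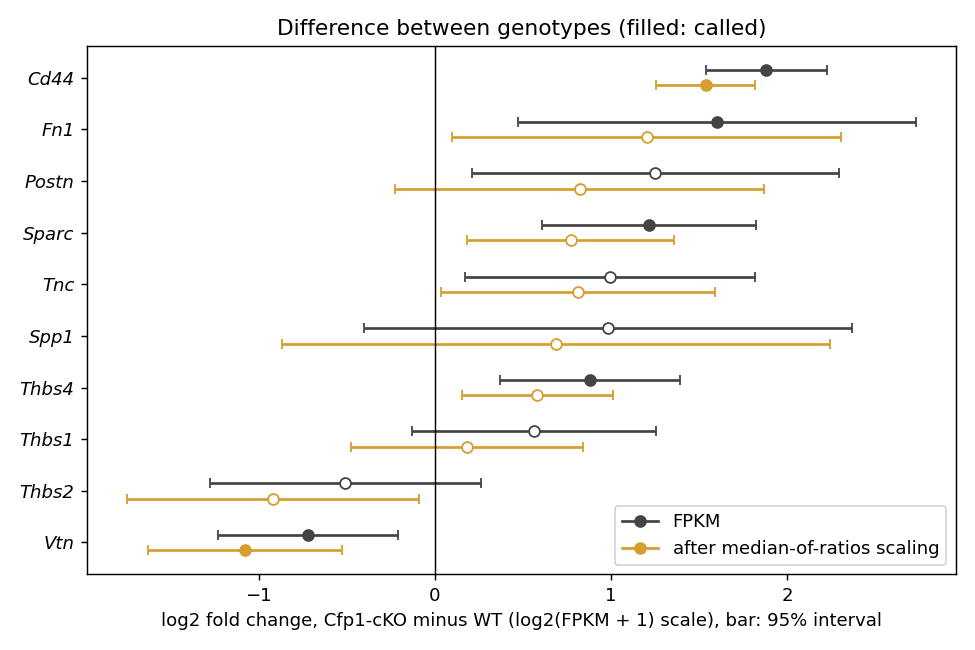
Log2 fold change (Cfp1-cKO minus WT, log2(FPKM + 1) scale) of the 10 genes with 95% intervals from limma, on FPKM (dark) and after median-of-ratios scaling (yellow), filled where called. Scaling shifts every estimate to lower values, and Cd44 (1.88 and 1.54) and Vtn (-0.72 and -1.08) are the genes filled on both scales.

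Other matricellular proteins were higher in Cfp1-cKO for 7 of 15 tested genes of 18 and lower for 0 beside 21.1% and 1.68% of all tested genes, with a median log2 fold change of 0.88 beside 0.35 over all genes. At an unadjusted p below 0.05 limma gave 12 and 0, beside 40.7% and 3.09% of all genes, and voom called 7 and 0, beside 23.5% and 1.54%. After scaling the count was 1 (3.74% of all genes) and the median 0.45 beside 0.00. Wisp2, the CCN family member also called Ccn5, which restrains fibroblast and smooth muscle growth, had FPKM values of 0.30, 0.25 and 0.38 in WT and of 4.75, 7.70 and 2.83 in Cfp1-cKO (log2 fold change 2.14, adjusted p = 0.00325 from limma). Wisp2 kept its call after scaling (1.91, adjusted p = 0.00832 from limma) and without any 1 library. Comp, the thrombospondin of cartilage and tendon, was called (1.10), as was Fbln5, which organises elastic fibres (1.03), but not after scaling. Comp was not called without WT 1 (1.08, adjusted p = 0.0929 from limma), WT 2 (0.83, adjusted p = 0.0661), Cfp1-cKO 2 (0.91, adjusted p = 0.121) or Cfp1-cKO 3 (1.11, adjusted p = 0.0824), and Fbln5 not without WT 1 (1.05, adjusted p = 0.0582) or Cfp1-cKO 2 (0.79, adjusted p = 0.0641). The number called higher fell to 1 without WT 1, 2 without Cfp1-cKO 2, and 4 without WT 2 or Cfp1-cKO 3. Over all 11017 tested genes it fell from 2325 to 619 without WT 1 and 538 without Cfp1-cKO 2. It was 1513 without WT 2 and 954 without Cfp1-cKO 3. Ctgf, also called Ccn2, a gene induced by TGF-beta and chosen here after its values were seen, had FPKM values of 20.2, 14.9 and 45.1 in WT and of 226, 37.8 and 44.7 in Cfp1-cKO. It was thus high in Cfp1-cKO 1, not in the library with the highest Postn and Fn1, and was not called (1.57, adjusted p = 0.104 from limma).

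Of 20 receptors of these proteins, 17 were tested, and 7 were called higher and 1 lower, beside 21.1% and 1.68% of all tested genes (median log2 fold change 0.45 beside 0.35 over all genes). After scaling 1 was called higher and 1 lower, beside 3.74% and 3.25%, with a median of 0.11 beside 0.00. Sdc1, the heparan sulphate proteoglycan syndecan-1, which is abundant on epithelial cells, had FPKM values of 1.67, 2.15 and 1.85 in WT and of 6.45, 11.7 and 12.8 in Cfp1-cKO (1.93, adjusted p = 0.00268 from limma). It was lower in every WT library than in any Cfp1-cKO library, and was called after scaling too (1.57, adjusted p = 0.00571 from limma). Itga9, the integrin subunit that binds tenascin-C and osteopontin, had FPKM values of 4.51, 2.13 and 8.40 in WT and of 12.7, 13.7 and 19.9 in Cfp1-cKO (1.57, adjusted p = 0.0234 from limma). Sdc4, the syndecan of focal adhesions, was called with a difference of 1.12 on the log2 scale (adjusted p = 0.0118 from limma), and Itga9, Sdc4, Itga5, Lrp1, Sdc3 and Stab1 were not called after scaling. Cd36, the fatty acid carrier and thrombospondin receptor, was the gene called lower, with FPKM values of 599, 640 and 598 in WT and of 390, 367 and 441 in Cfp1-cKO (-0.62, adjusted p = 0.0237 from limma), and at -1.07 after scaling (adjusted p = 0.0139 from limma). All 3 Cfp1-cKO values of Cd36 lay below all WT values. Itga9 lost its call without WT 1 (1.57, adjusted p = 0.0632), Cfp1-cKO 2 (1.63, adjusted p = 0.0687) or Cfp1-cKO 3 (1.38, adjusted p = 0.0708). Cd36 lost its call without WT 1 (-0.64, adjusted p = 0.0828), WT 2 (-0.59, adjusted p = 0.0508), Cfp1-cKO 1 (-0.61, adjusted p = 0.0509) or Cfp1-cKO 2 (-0.56, adjusted p = 0.104). The number called higher fell to 2 without WT 1 or Cfp1-cKO 2 and to 3 without Cfp1-cKO 3. Over all 11017 tested genes it fell from 2325 to 619, 538 and 954 in these settings. The sum over the receptors was 862 to 934 FPKM across WT and 756 to 847 FPKM across Cfp1-cKO libraries, of which Cd36 was the main part.

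Fold changes in the hyaluronan axis of Cd44 were smaller than that of Cd44. Of its 17 genes 9 were tested, and Vcan, Tmem2 and Msn were called higher and 0 lower, beside 21.1% and 1.68% of all tested genes, with a median of 0.28, below the 0.35 of all genes. Voom gave the same counts, 3 and 0, beside 23.5% and 1.54%, and at an unadjusted p below 0.05 limma gave 3 higher and 1 lower, beside 40.7% and 3.09% of all genes. After scaling the median was 0.01 beside 0.00, and 0 were called by limma, with 2 higher and 1 lower at an unadjusted p below 0.05, beside 12.7% and 12% of all genes. The hyaluronan synthases Has1, Has2 and Has3 were each below the filter, at no more than 0.43 FPKM in any library. Msn, which encodes moesin, the protein that ties Cd44 to actin, had FPKM values of 30.7, 33.0 and 31.6 in WT and of 50.6, 59.9 and 53.0 in Cfp1-cKO (0.76, adjusted p = 0.012 from limma). Its call was lost without WT 1 (0.73, adjusted p = 0.0542) or Cfp1-cKO 2 (0.69, adjusted p = 0.0587). Tmem2, a cell surface hyaluronidase, was called with a difference of 0.86 on the log2 scale (adjusted p = 0.0137 from limma), and 0.73 without Cfp1-cKO 2 (adjusted p = 0.0602). Vcan, the hyaluronan-binding proteoglycan versican, had a difference of 1.10 (adjusted p = 0.0383 from limma), and lost its call without WT 1 (1.16, adjusted p = 0.0832), WT 2 (0.80, adjusted p = 0.0701), Cfp1-cKO 1 (1.23, adjusted p = 0.0561), Cfp1-cKO 2 (0.84, adjusted p = 0.13) or Cfp1-cKO 3 (1.22, adjusted p = 0.0686). Cd44 itself was called without any 1 library, whereas limma called 1 of these 9 genes without WT 1, and 0 without Cfp1-cKO 2 (3 higher at an unadjusted p below 0.05, beside 27% of all genes). Of all 11017 tested genes, limma called 619 higher without WT 1 and 538 without Cfp1-cKO 2, against 2325 with all libraries.

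Of 7 genes of plasminogen activation, which cleaves fibronectin and frees matrix-bound growth factors, 4 were tested and 1 was called higher, beside 21.1% of all tested genes. The median log2 fold change was 0.73 beside 0.35 over all genes, and 0.38 beside 0.00 after scaling. The gene called was Plau, the urokinase, with FPKM values of 0.11, 0.11 and 0.31 in WT and of 1.82, 2.87 and 0.92 in Cfp1-cKO (1.23, adjusted p = 0.0172 from limma). It was called after scaling too (1.07, adjusted p = 0.0441 from limma), but not without WT 1 (1.19, adjusted p = 0.0589).

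A list of 12 genes covered fibrillar collagen assembly, the matrix on which Sparc, Postn and Fn1 act, and also elastic fibres (Eln, Fbn1 and Loxl1). All were tested, and 6 were called higher and 0 lower, beside 21.1% and 1.68% of all tested genes. The median log2 fold change was 1.02 beside 0.35. At an unadjusted p below 0.05 limma gave 12 higher and 0 lower, beside 40.7% and 3.09%, and voom called 9 and 0, beside 23.5% and 1.54%. After scaling the median was 0.60 beside 0.00 and 0 were called by limma (3 higher at an unadjusted p below 0.05, beside 12.7% of all genes). Eln, which encodes tropoelastin, had FPKM values of 40.9, 24.8 and 56.1 in WT and of 112, 388 and 135 in Cfp1-cKO (2.2, adjusted p = 0.0178 from limma). Like Postn and Fn1, Eln was lowest in WT 2 and highest in Cfp1-cKO 2. Fbn1, the fibrillin of microfibrils (1.19, adjusted p = 0.028 from limma), and Loxl1, a lysyl oxidase of elastic fibres (1.16, adjusted p = 0.0185 from limma), were called as well. Without WT 1 none of these 3 was called (2.24 with an adjusted p = 0.0505 for Eln, 1.23 with 0.0692 for Fbn1, and 1.15 with 0.0581 for Loxl1), and Fbn1 was also lost without WT 2 (0.96, adjusted p = 0.0566), Cfp1-cKO 2 (0.89, adjusted p = 0.0897) or Cfp1-cKO 3 (1.26, adjusted p = 0.0611). The number called higher by limma was 0 without WT 1 (10 at an unadjusted p below 0.05, beside 30% of all genes), 2 without Cfp1-cKO 2 or Cfp1-cKO 3, 3 without WT 2 and 11 without WT 3. Over all 11017 tested genes it was 2325 with all libraries and 619 without WT 1. It was 538 without Cfp1-cKO 2, 954 without Cfp1-cKO 3, 1513 without WT 2 and 2588 without WT 3. Of the collagens in the list only Col5a2 was called (0.82, adjusted p = 0.0367 from limma). Its call was lost after scaling and without WT 1, WT 2, Cfp1-cKO 2 or Cfp1-cKO 3. Col1a1 (1.18, adjusted p = 0.0552 from limma), Col1a2 (1.105, adjusted p = 0.0536), Col3a1 (1.09, adjusted p = 0.0626) and Col5a1 (0.81, adjusted p = 0.0766) missed the threshold. These collagens are named after their values were seen.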

How the data were processed

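RNA of 3 WT and 3 Cfp1-cKO heart samples was measured by RNA-seq, and groups were taken from the submitters' genotype labels. The authors deposited FPKM per gene, in a plain and an annotated table whose values were identical for all 26881 genes. The submitters' processing notes name GRCm38, CASAVA, HISAT2 2.1.0, HTSeq 0.6.0, Bowtie2 2.2.3, TopHat2 and DESeq2, without roles. The methods of the study name a chicken genome for the reference, and the extraction text of the submitters names retina, which could not be related to these hearts. For 23964 genes the FPKM were whole multiples of 1 fragment in all libraries (tolerance 0.02) with GENCODE M21 exon lengths, and library totals follow from these steps. For 2821 more, other lengths were searched, and the nearest that gave whole values was used. Whole values of these genes are thus a result of the search and no check of it. Both groups together are 99.6% of genes.

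Genotypes were compared with limma 3.58.1 (R 4.3.3) on log2(FPKM + 1), letting the prior variance follow the mean, for genes averaging 1 FPKM or more. The design allowed for either unit, and its FPKM test was used. Calls required a Benjamini-Hochberg adjusted p under 0.05 and a log2 fold change over 0.5 in size. The procedure was tested on simulated data. Median-of-ratios scaling divided each library by the median ratio of its FPKM to the gene means. Named were all 10 genes, Cxxc1, up to 3 called genes of each of 5 pathway lists with the largest change and no overlap of genotypes, up to 2 genes of each of 14 marker lists, and the 2 nearest protein-coding genes in pattern for the 3 genes with the largest change. A few further genes were named after their values were seen. The genes, lists and tests were chosen with earlier results of these data known. Alternatives covered the pseudocount, filter, scaling, variance trend, library weights, replicate block, fold threshold, voom on recovered fragments and each library left out. Sex as a covariate was added after seeing the data. Exon overlap was taken from GENCODE M21, and promoter windows from RefSeq (GRCm38.p6). Python 3.11.15, numpy 2.4.6, pandas 2.3.3 and matplotlib 3.10.9 were used for tables and plots.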

Additional observations from a re-analysis of the deposited data

How the results depend on the processing

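All 10 fold changes kept their direction under the 17 alternative settings wherever the gene was tested, and with sex as a covariate, which was chosen after seeing the data. Fn1, Vtn, Sparc and Thbs4 lost their calls under several, and the cause was not tested. The count of called genes was 2510, and 1609 with no filter on low values, 1179 with a mean of at least 5 FPKM (which also leaves out Spp1, Tnc and Thbs4), 770 after median-of-ratios scaling, 1452 without mitochondrial and haemoglobin genes, 4399 with library weights and 743 with a fold threshold of 1. Leaving out 1 library gave 588 (without Cfp1-cKO 2) to 2789, with 680 without WT 1 and 1086 without Cfp1-cKO 3.

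Of the set, 4 genes were called higher, but 1 with no filter, 2 with a mean of at least 5 FPKM, 1 after scaling, 7 with library weights (adding Postn, Spp1 and Tnc), and 1 to 4 with 1 library left out. The count of the set called lower, 1 (Vtn), became 0 with a pseudocount of 0.1, no filter, a mean of at least 5 FPKM, no mitochondrial and haemoglobin genes, no variance trend, a fold threshold of 1, voom or sex as a covariate, and was 0 to 1 with 1 library left out. Fn1 lost its call with a pseudocount of 0.1 (adjusted p = 0.0525), a mean of at least 5 FPKM (0.052), no filter (0.115), and no mitochondrial and haemoglobin genes (0.0827), all from limma. The pathway lists held 25 called genes, 12 with no filter, 4 after scaling, 42 with library weights, 11 with a fold threshold of 1, and 4 to 34 with 1 library left out.

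The replicate numbers were also used as a block. Deviations of libraries with the same number correlated at 0.108, 0.0361 and 0.104. With 3 libraries per genotype, these values cannot settle whether the numbers pair the samples. With the replicate block 1749 genes and 14 genes of the pathway lists were called, and 3 genes of the set higher (Fn1 lost its call, adjusted p = 0.0968 from limma) and 1 lower. Spp1, Tnc, Thbs4 and Vtn rest on at most 499 fragments per library, as does Cd44 in WT (192 to 264). The part of depth in the spread of these genes was not tested.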
